A study of Mus musculus with 12 samples.

Results

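Transcript levels of 40 genes of mitosis and the G2/M transition were described in mouse epiblast stem cells (EpiSCs) treated with CHIR99021, XAV939 or both. The 40 genes were named as a list: cyclins, Cdk1 and its Cdc25 activators, mitotic kinases, spindle checkpoint and APC/C partners, kinesins, spindle microtubule proteins, centromere and chromosome proteins, and cytokinesis proteins. Of these, 39 had a probe assigned to that gene alone, among 19938 genes measured, and Ccnb1 (cyclin B1) was not analysed here. None of the 39 genes passed the test, limma with an adjusted p under 0.05, in any of 8 comparisons. With CHIR99021 present, 33 of the 39 were lower on average, where 52.3% of all genes were. The median difference over all 39 was -0.05 on the log2 scale.

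Cells enter mitosis when Cdk1 bound to a B-type cyclin is switched on by Cdc25 phosphatases, with Plk1 and the Aurora kinases acting alongside. The spindle checkpoint then holds Cdc20, the activator of the ubiquitin ligase APC/C, until every chromosome is attached, after which APC/C marks cyclin B and securin for destruction. Many of these genes are transcribed late in the cell cycle through the MuvB complex and its partners B-Myb and FoxM1, and are kept low earlier by MuvB in the DREAM complex. Pluripotent stem cells divide rapidly, with short gap phases.

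The study compared 4 groups of 3 arrays, all from EpiSCs of genetic background 129, pluripotent cells that resemble the epiblast after implantation. One label field calls the same cells embryonic stem cells. All 12 samples were kept for 12 h in medium without serum, according to the series' design text, although the growth medium given for every sample contains 10% serum. Untreated cells received no compound. A second group received CHIR99021, an inhibitor of the kinase GSK3 that stabilises β-catenin, at 3 µM for 2 h. Another group received XAV939, a tankyrase inhibitor that stabilises Axin and so favours β-catenin breakdown, at 2 µM. The fourth group received both compounds at those doses. The time with XAV939 is 2 h in the sample labels and 4 h in the design text. Whether the 3 arrays of a group stand for separate cultures is not given in the labels. The p-values therefore reflect only how these arrays vary, and part of that may be technical.

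RNA from whole cultures was measured on Affymetrix arrays, and values are log2 expression per probe. In such bulk samples, fewer cells in mitosis and less transcript per cell cannot be told apart. Array medians lay between 5.22 and 5.27. The standard deviation over genes was lowest on untreated replicate 3 and XAV939 replicate 2 (both 2.14), and reached 2.21 on replicate 3 with both compounds. As a check of the treatment, Axin2, a direct target of β-catenin, rose by 0.89 ± 0.07 (SE, 6 arrays with CHIR99021 against 6 without, limma, adjusted p = 2.4e-06). For the 6 arrays with XAV939 against the 6 without, Axin2 differed by -0.40 ± 0.07 (SE, limma, adjusted p = 0.0375), a call kept in 10 of 22 alternative settings. With XAV939 alone against untreated it differed by -0.22 ± 0.10 (SE, limma, adjusted p = 0.418), and the 2 groups overlapped. Of 10 EpiSC markers, 8 lay above a background measure of 4.94, the 95th percentile of the mean levels of 1194 olfactory and vomeronasal receptor genes. Pou5f1, a defining pluripotency factor, averaged 11.47. Of 11 fibroblast markers, 3 lay above background. The mean over that list was 4.85 to 4.93 on the untreated arrays, 4.77 to 4.81 with CHIR99021, 4.79 to 4.83 with XAV939 and 4.73 to 4.81 with both, and the part of this difference in the results was not tested. All 39 mitotic genes lay above background, with means over the 12 arrays from 6.19 (Cdc25b) to 11.54 (Bub1), and since probes differ in brightness these levels give no order between genes.

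The DNA around the annotated starts shows what many of the 39 genes share. The 6 stretches printed here run from 100 bases before to 50 bases after a RefSeq start (GRCm38.p6, 5′ to 3′ on the gene's strand). They belong to entry, checkpoint and kinesin genes described later. All 6 hold TTTGAA, which not every gene with a window does. Capitals mark TTTGAA or its reverse TTCAAA, the core of the cell cycle genes homology region bound by MuvB, and CCAAT or its reverse ATTGG, the box bound by NF-Y. Ccnb2 (chr9:70421505-70421654, minus strand), Cdk1 (chr10:69352863-69353012, minus strand), Plk1 (chr7:122159335-122159484, plus strand), Aurka (chr2:172370521-172370670, minus strand), Cdc20 (chr4:118437294-118437443, minus strand) and Kif20b (chr19:34922258-34922407, plus strand) are shown.
Ccnb2: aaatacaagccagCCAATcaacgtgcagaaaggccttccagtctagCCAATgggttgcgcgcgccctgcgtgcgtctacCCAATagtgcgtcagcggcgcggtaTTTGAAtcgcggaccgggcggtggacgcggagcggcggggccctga
Cdk1: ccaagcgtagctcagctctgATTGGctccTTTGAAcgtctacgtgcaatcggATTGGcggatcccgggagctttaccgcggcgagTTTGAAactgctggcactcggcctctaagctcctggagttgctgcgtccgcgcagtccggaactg
Plk1: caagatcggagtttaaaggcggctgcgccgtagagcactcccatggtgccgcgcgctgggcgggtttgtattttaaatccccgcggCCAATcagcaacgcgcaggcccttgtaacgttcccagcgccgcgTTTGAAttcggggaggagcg
Aurka: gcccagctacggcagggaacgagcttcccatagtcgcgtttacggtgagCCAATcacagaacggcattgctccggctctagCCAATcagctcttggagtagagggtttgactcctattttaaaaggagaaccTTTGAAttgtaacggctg
Cdc20: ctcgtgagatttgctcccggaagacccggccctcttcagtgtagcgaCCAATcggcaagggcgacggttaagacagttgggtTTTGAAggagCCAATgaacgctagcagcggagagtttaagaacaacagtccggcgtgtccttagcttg
Kif20b: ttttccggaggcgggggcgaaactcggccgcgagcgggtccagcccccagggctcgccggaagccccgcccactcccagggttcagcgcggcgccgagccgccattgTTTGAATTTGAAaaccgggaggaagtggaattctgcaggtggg

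Start windows were listed for 32 of the 39 genes, as 35 windows of 300 bases, 250 before and 50 after the start. Ccna2, Cdc25c, Aurkb, Kif20a, Tpx2, Dlgap5 and Fam64a had none. TTTGAA, searched on both strands, stood in 27 of the 35 windows (77.1%), against 17.9% of all 32851 windows of that length. Most matches were close to the start: 24 of 35 windows (68.6%) held one within 50 bases on either side of it, against 4.94% of all windows. CCAAT, also on both strands, stood in 27 of 35 windows (77.1%) against 37.4% of all. The variant TTTAAA stood in 7 (20%) against 13.2%. The median GC content was 59% in these windows and 52.7% in all of them. Kif20b held the hexamer in tandem and no CCAAT, and Ect2 held 2 hexamers and 3 CCAAT boxes, each lying in both of its overlapping windows. Bub3 and Prc1 also had 2 windows, so the matches of these 3 genes are counted in both windows, and with 1 window per gene 75% held TTTGAA against 18.1% of all. No window of Cdc25b, Nek2, Bub1, Mad2l1, Nusap1, Nuf2, Sgol1 or Birc5 held TTTGAA. A match is a string of letters in a window and not a measured binding site.

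**Figure D1:**
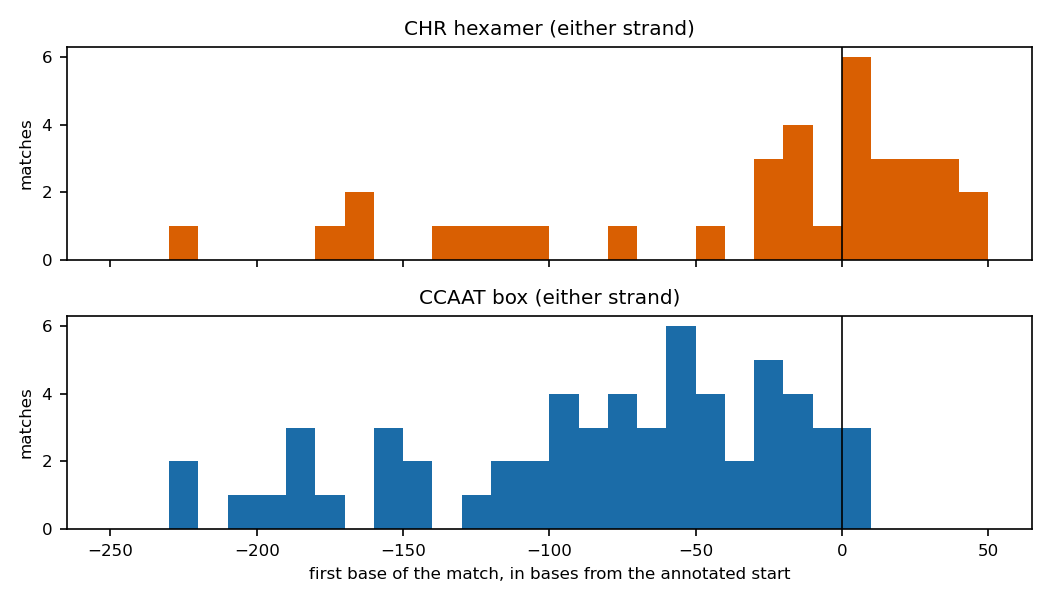
Positions of TTTGAA (upper panel) and CCAAT (lower panel) matches, on either strand, in the 35 start windows of 32 mitosis and G2/M genes; the horizontal axis is the distance of the first base of a match from the annotated start in bases, and the vertical axis is the number of matches, where a match of a gene with 2 overlapping windows counts in each. The TTTGAA matches gather around the start, where 24 windows held one, whereas the CCAAT matches are spread further before it.

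None of the cyclins, Cdk1 or Cdc25 passed the test. Over 6 against 6 arrays, 5 of the 6 measured genes were lower with CHIR99021, with a median of -0.01, and Cdc25c was higher by 0.12. With CHIR99021 against untreated, 3 of the 6 were lower and 3 higher, with a median of 0.00. Cdk1, the kinase that drives entry into mitosis, measured 9.84, 10.07 and 9.66 in untreated cells, 9.73, 10.12 and 9.74 with CHIR99021, 9.76, 9.58 and 9.97 with XAV939, and 9.74, 9.54 and 9.62 with both. It varied most within groups of all 39 genes (SD 0.19), and its values overlapped between every pair of groups. The difference for both compounds against untreated was -0.22 ± 0.12 (SE, limma, adjusted p = 0.345). Cdc25c, a phosphatase that activates Cdk1, measured 7.39, 7.35 and 7.20 untreated, 7.37, 7.46 and 7.42 with CHIR99021, 7.36, 7.29 and 7.25 with XAV939, and 7.31, 7.61 and 7.43 with both. The CHIR99021 and XAV939 arrays of Cdc25c did not overlap, and every other pair of groups did. Ccnb2, the second B-type cyclin, had the narrowest spread, with all 12 arrays within 0.14 of each other. Ccna2 (cyclin A2) lay within 0.17, and Ccnf (cyclin F, a subunit of an SCF ubiquitin ligase) within 0.37.

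The mitotic kinases were lower in all 4 cases with CHIR99021 across the 6 against 6 arrays, by -0.08 for Aurka to -0.13 for Nek2, and none passed the test. Nek2, which separates centrosomes, measured 8.73, 8.79 and 8.73 in untreated cells, 8.59, 8.61 and 8.55 with CHIR99021, 8.85, 8.75 and 8.82 with XAV939, and 8.76, 8.72 and 8.63 with both. Its 3 arrays with CHIR99021 alone were its 3 lowest values, and they did not overlap any other group. Against untreated cells the difference was -0.16 ± 0.07 (SE, 95% interval -0.31 to -0.02, limma, adjusted p = 0.401). Aurkb, the kinase of the chromosomal passenger complex, measured 10.15, 10.08 and 10.03 untreated, 10.17, 10.22 and 10.01 with CHIR99021, 10.18, 10.29 and 10.15 with XAV939, and 10.00, 9.89 and 9.96 with both. The 3 arrays with both compounds were its lowest. Each compound alone gave a positive difference from untreated cells (0.04 and 0.12) and the combination a negative one (-0.14). The interaction for Aurkb was -0.30 ± 0.11 (SE, 95% interval -0.53 to -0.07), with an unadjusted p of 0.0145 and an adjusted p of 0.965 by limma. Plk1, which acts from entry to cytokinesis, measured 10.75, 10.63 and 10.61 untreated, 10.64, 10.55 and 10.47 with CHIR99021, 10.66, 10.74 and 10.59 with XAV939, and 10.56, 10.60 and 10.65 with both, so that all groups overlapped. Aurka, which matures the spindle poles, measured 9.93, 9.94 and 9.86 untreated, 9.81, 9.82 and 9.86 with CHIR99021, 9.98, 10.02 and 9.94 with XAV939, and 9.87, 9.91 and 9.91 with both. The XAV939 arrays of Aurka were narrowly above those of every other group, and its spread within groups, 0.035, was the smallest of the 39 genes.

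All 7 genes of the spindle checkpoint and APC/C partners were lower in the cells with both compounds than in untreated cells, from -0.03 for Bub3 to -0.17 for Ube2c, the ubiquitin-conjugating enzyme of APC/C. None passed the test. Cdc20 measured 9.77, 9.67 and 9.69 in untreated cells, 9.68, 9.49 and 9.52 with CHIR99021, 9.78, 9.92 and 9.70 with XAV939, and 9.59, 9.66 and 9.62 with both. Its values with XAV939 were above all 6 arrays that had CHIR99021, and those with both compounds were below all 3 untreated arrays. The CHIR99021 difference over 6 against 6 arrays was -0.16 ± 0.06 (SE, 95% interval -0.28 to -0.04, limma, adjusted p = 0.178). Mad2l1, the checkpoint protein that holds Cdc20, measured 11.59, 11.51 and 11.52 untreated, 11.48, 11.52 and 11.54 with CHIR99021, 11.48, 11.32 and 11.47 with XAV939, and 11.45, 11.36 and 11.49 with both. Its untreated arrays were above all 6 arrays with XAV939, and the XAV939 difference over 6 against 6 arrays was -0.10 ± 0.05 (SE, limma, adjusted p = 0.336). Bub1, Bub1b, Bub3 and Ttk, the kinases and scaffolds of the checkpoint signal, had CHIR99021 differences between -0.06 and -0.02 over the same arrays.

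The kinesins included Kif20b, with the largest difference of the 39 genes for both compounds against untreated, and Kif14, with the largest for XAV939. Kif20b, a motor that works in the last steps of cytokinesis, measured 9.02, 8.96 and 8.99 in untreated cells, 8.86, 9.14 and 8.69 with CHIR99021, 8.93, 8.87 and 9.03 with XAV939, and 8.78, 8.33 and 8.63 with both. The 3 arrays with both compounds were below every untreated and every XAV939 array, but 1 CHIR99021 array lay among them. The difference for both against untreated was -0.41 ± 0.11 (SE, 95% interval -0.65 to -0.16, limma, adjusted p = 0.0808). Kif14, a motor of the central spindle, measured 7.62, 7.48 and 7.36 untreated, 7.34, 7.45 and 7.42 with CHIR99021, 7.86, 7.71 and 7.71 with XAV939, and 7.53, 7.49 and 7.69 with both. The XAV939 arrays were its 3 highest. Its XAV939 difference over 6 against 6 arrays was 0.22 ± 0.06 (SE, 95% interval 0.09 to 0.35, limma, adjusted p = 0.097). A second probe of Kif14 averaged 4.74, below background, and showed 0.00. Kif2c, which removes tubulin from microtubule ends, measured 9.76, 9.67 and 9.77 untreated, 9.73, 9.67 and 9.59 with CHIR99021, 9.84, 9.86 and 9.81 with XAV939, and 9.70, 9.50 and 9.61 with both. Its XAV939 arrays were above all others, and both compounds differed from XAV939 alone by -0.23 ± 0.07 (SE, limma, adjusted p = 0.289). Kif11, the motor that pushes the spindle poles apart, Kif4, Kif20a and Kif23 had CHIR99021 differences from -0.05 to 0.01 over 6 against 6 arrays.

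All 5 spindle microtubule genes were lower with CHIR99021 than in untreated cells, from -0.13 for Prc1 to -0.04 for Hmmr, and none passed the test. Prc1, which bundles the central spindle, measured 8.85, 8.62 and 8.65 untreated, 8.61, 8.53 and 8.59 with CHIR99021, 8.73, 8.69 and 8.83 with XAV939, and 8.80, 8.69 and 8.72 with both. The CHIR99021 arrays were below all other arrays. Nusap1, which bundles microtubules near chromosomes, measured 10.04, 9.91 and 9.81 untreated, 9.73, 9.95 and 9.89 with CHIR99021, 9.89, 9.56 and 9.92 with XAV939, and 9.71, 9.67 and 9.84 with both. Its lowest value came from XAV939 replicate 2, which also gave the lowest values of Hmmr, Ttk, Mad2l1, Kif11, Kif4, Cenpa, Nuf2, Sgol1 and Birc5 and the highest of Cdc20, Aurka, Aurkb, Kif20a and Kif2c. That array was 1 of the pair with the smallest spread over genes.

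None of the 7 centromere and chromosome genes passed the test. Over 6 against 6 arrays, 4 were lower with CHIR99021 and 3 higher, all 7 were lower with XAV939, by -0.07 to -0.01, and 6 were lower with both compounds than untreated. Fam64a (now Pimreg), a protein that peaks in mitosis, measured 8.06, 8.39 and 8.47 in untreated cells, 8.24, 8.17 and 8.03 with CHIR99021, 8.44, 8.37 and 8.39 with XAV939, and 8.18, 7.86 and 8.06 with both. Untreated replicate 1 lay with the CHIR99021 arrays, and the other 5 arrays without CHIR99021 were above all 6 with it. The difference over 6 against 6 arrays was -0.26 ± 0.07 (SE, 95% interval -0.42 to -0.10, limma, adjusted p = 0.0978), and without untreated replicate 1 it was -0.32 with an adjusted p of 0.0283. Sgol1 (now Sgo1, shugoshin), which protects centromeric cohesin, measured 10.06, 10.25 and 9.95 untreated, 10.17, 10.28 and 10.30 with CHIR99021, 10.07, 9.92 and 10.08 with XAV939, and 10.10, 10.21 and 10.22 with both. It had the largest positive CHIR99021 difference, 0.16 ± 0.06 (SE, limma, adjusted p = 0.229). Top2a, the topoisomerase that untangles sister chromatids, measured 10.93, 11.07 and 10.97 untreated, 10.87, 10.98 and 11.02 with CHIR99021, 10.97, 10.94 and 11.01 with XAV939, and 10.93, 10.94 and 10.99 with both, and all groups overlapped. Its 95% interval for CHIR99021 was -0.13 to 0.08. Cenpa, Ndc80, Nuf2 and Birc5, which act at the centromere or kinetochore, had CHIR99021 differences from -0.11 to 0.05 over the same arrays.

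All 3 cytokinesis genes were lower with each treatment than in untreated cells, and none passed the test. Ect2, the exchange factor that activates RhoA at the division plane, measured 11.49, 11.37 and 11.29 in untreated cells, 11.14, 11.25 and 11.26 with CHIR99021, 11.33, 11.19 and 11.40 with XAV939, and 11.18, 11.08 and 11.28 with both. All 6 arrays with CHIR99021 were below all 3 untreated arrays, and they overlapped the XAV939 arrays. The difference for both compounds against untreated was -0.20 ± 0.08 (SE, limma, adjusted p = 0.201). Anln (anillin), the scaffold of the contractile ring, measured 10.11, 10.10 and 10.11 untreated, 9.97, 10.06 and 10.14 with CHIR99021, 10.02, 9.98 and 10.10 with XAV939, and 10.04, 9.99 and 10.07 with both. Its untreated arrays were nearly equal and lay above all 3 with both compounds. Racgap1, which works with Ect2, had the lowest difference of the 39 genes with either compound alone against untreated. It was -0.22 with CHIR99021 (limma, adjusted p = 0.486) and -0.17 with XAV939 (limma, adjusted p = 0.546). Racgap1 ranged over 0.51 and had an interaction of 0.34 ± 0.14 (SE, limma, adjusted p = 0.965).

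**Figure D2:**
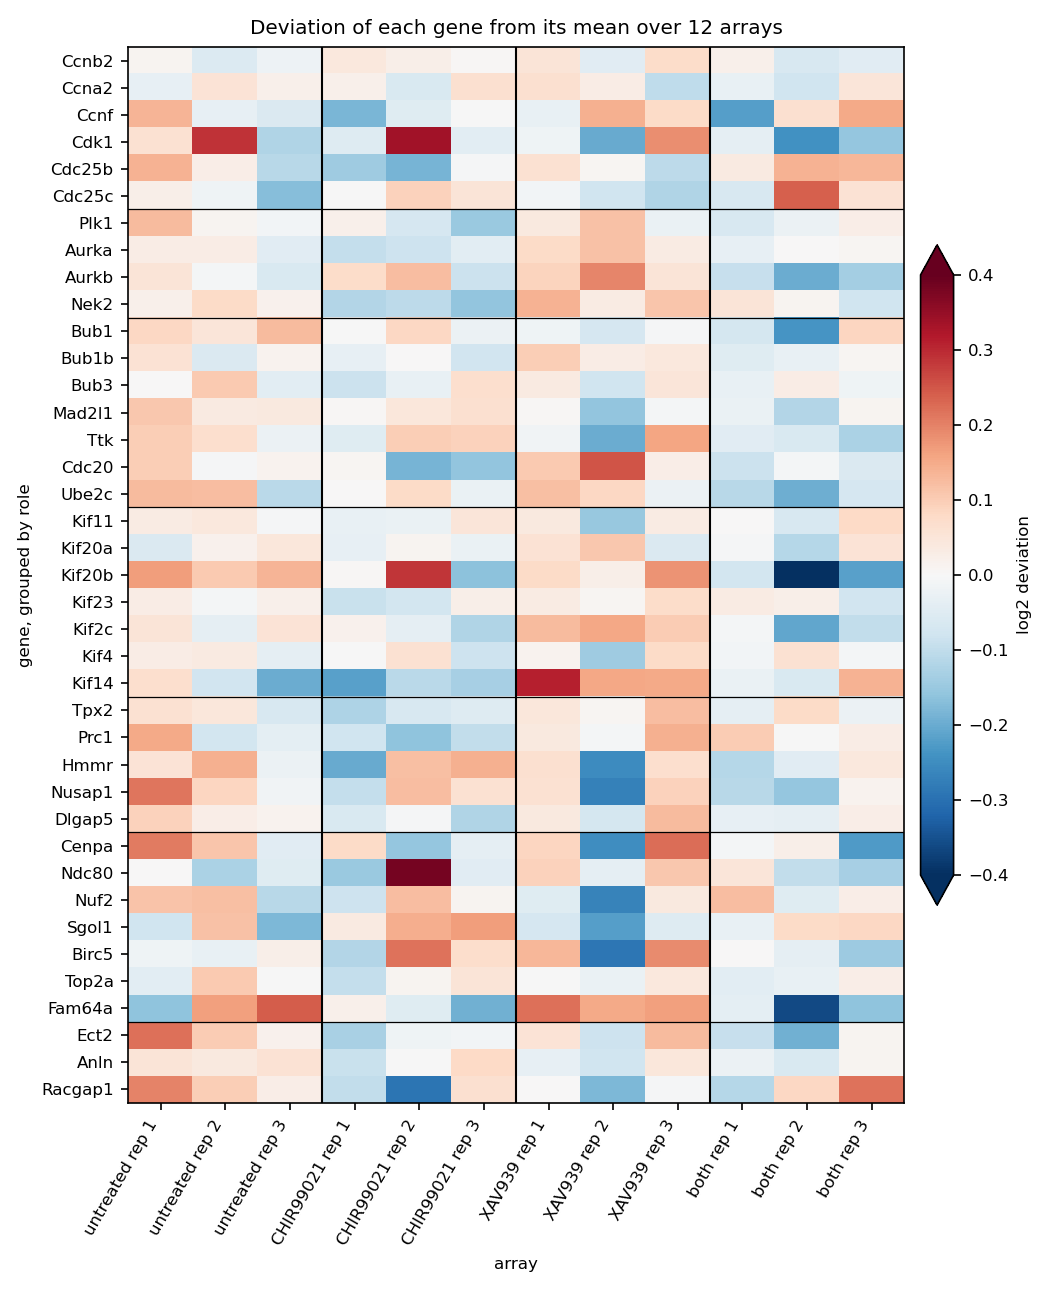
Deviation of each of the 39 genes (rows, grouped by role with thin lines between roles) from its own mean over the 12 arrays (columns, 3 per group), in log2 units, red above and blue below the mean; values beyond the ends of the scale take the end colour. Kif20b with both compounds (8.33 on replicate 2) and Cdk1 on untreated replicate 2 and CHIR99021 replicate 2 (10.07 and 10.12) lie among the strongest colours.

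Counted over all 39 genes, CHIR99021 against untreated gave 0 calls by limma at an adjusted p under 0.05, where 0.421% of all genes were called, and 1 gene, Nek2, at an unadjusted p under 0.05, where 10.3% were. XAV939 against untreated gave 0 calls, where 0% of all genes were called, and 1 gene, Kif14, at an unadjusted p under 0.05, where 11.2% were. Both compounds against untreated gave 0 calls against 1.13% of all genes, and 4 genes (10.3% of the 39), all lower, at an unadjusted p under 0.05, where 18.7% of all genes were in either direction and 8.64% lower. Both compounds against XAV939 gave 0 calls against 0.236%, and 7 genes (17.9% of the 39), all lower, at an unadjusted p under 0.05, where 9.69% were in either direction and 4.77% lower. Both against CHIR99021 gave 0 calls against 0.0251%, and 3 genes at an unadjusted p under 0.05, where 11% were. The interaction gave 0 calls against 0%, and 2 genes at an unadjusted p under 0.05, where 4.94% were. These comparisons share arrays, so they are not separate evidence. For the 6 arrays with CHIR99021 against the 6 without, 0 genes were called against 1.59% of all genes, and 8 (20.5%) had an unadjusted p under 0.05, where 14% of all genes did. Of these 8, 1 was higher and 7 lower, where 6.98% and 7.01% of all genes were. For the 6 arrays with XAV939 against the 6 without, 0 were called against 0.331%, and 2 had an unadjusted p under 0.05, 1 in each direction, where 16.9% of all genes did.

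The median standard error was 0.06 for the 6 against 6 comparisons and 0.08 for the pairs of groups. For both 6 against 6 comparisons the 95% interval of all 39 genes lay within a 1.5-fold change in either direction. The same held for all 39 genes with either compound against untreated and for 38 with both compounds against untreated, where Kif20b was the exception. It held for all 39 with both compounds against CHIR99021, for 37 with both against XAV939 and for 37 in the interaction.

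**Figure D3:**
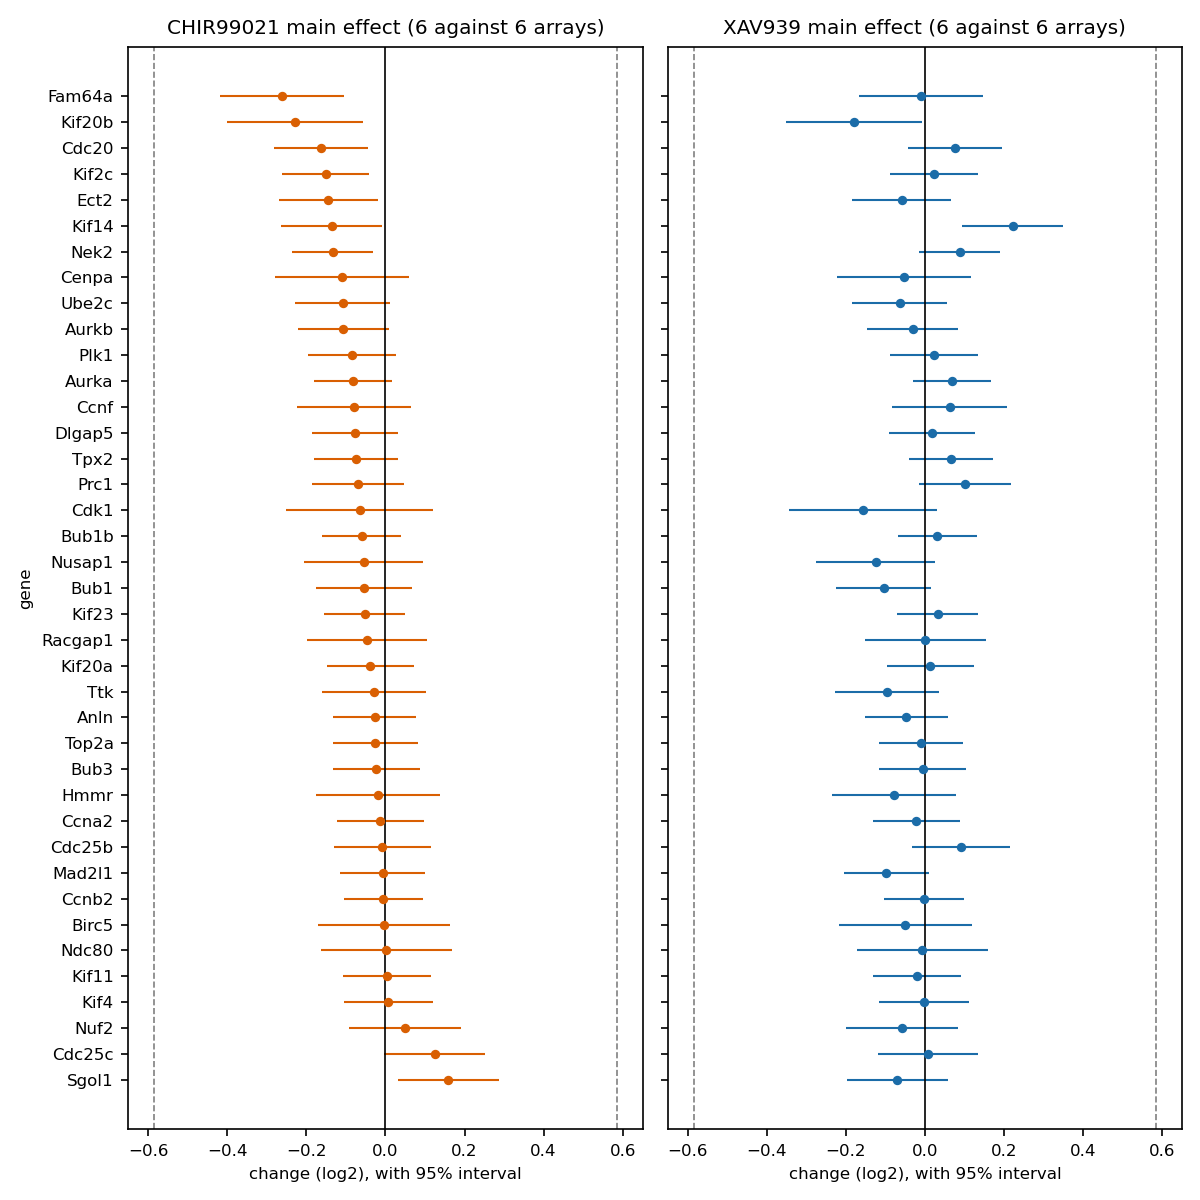
Difference (log2, horizontal axis) for each of the 39 genes between the 6 arrays with and the 6 without CHIR99021 (left) or XAV939 (right), with 95% intervals from the fit; the dashed lines mark 1.5-fold. Genes are ordered by the CHIR99021 difference, from -0.26 for Fam64a to 0.16 for Sgol1, and all intervals stay inside the dashed lines.

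With CHIR99021 against untreated, 4 genes were lower without overlap (Nek2, Prc1, Dlgap5 and Ect2), where 8.25% of all genes were, and 0 were higher, where 8.09% were. With XAV939, 3 were higher (Aurka, Kif2c and Kif14) and 3 lower (Bub1, Mad2l1 and Racgap1), where 9.48% and 8.17% of all genes were. With both compounds, 7 were lower than untreated (Aurkb, Mad2l1, Ttk, Cdc20, Kif20b, Ect2 and Anln) and 0 higher, where 12% and 13% of all genes were. Both compounds against XAV939 gave 9 lower (23.1% of the 39) and 1 higher, where 7.32% and 6.94% of all genes were, and both against CHIR99021 gave 2 lower and 6 higher (15.4%), where 7.18% and 8.92% were. The other counts came to between 0% and 17.9% of the 39 genes. Over 6 against 6 arrays no member was without overlap for CHIR99021, where 0.848% of all genes were lower and 0.782% higher, nor for XAV939, where 0.517% were lower and 1.01% higher. Here too the shares are over all genes and not over genes of similar level.

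The direction leaned one way with CHIR99021. Over 6 against 6 arrays, 33 of the 39 genes were lower, with a median of -0.05, against 52.3% of all genes and a median of 0.00. Brighter genes as a class leaned the other way, and only 32.9% of the genes of like level were lower. Genes of like level here are the 400 nearest in mean, 200 on each side, and the median of those genes was subtracted as a description with no test. After that, the median of the 39 genes was -0.08 and 36 were lower. Of 47 other mitosis genes, 26 were lower over the same arrays, with a median of -0.02, and -0.055 after the subtraction. The medians after it were -0.054 for 22 transcription factors of the G2/M programme and -0.055 for 18 inhibitors of the cell cycle. They were -0.033 for 38 G1/S and replication genes and -0.016 for 14 APC/C subunits and inhibitors. XAV939 over 6 against 6 arrays gave 23 of 39 lower, a median of -0.01, and -0.02 after the subtraction. The pooled SD of the array medians of the 39 genes within groups was 0.039. Deviations from the group means were correlated between genes over the 12 arrays. The median r was 0.17 over the 741 pairs of the 39 genes, and 65.9% of pairs were above 0. For the 8266 genes at or above the lowest mean of the 39, these were 0.05 and 54.6%. The counts of lower genes are therefore not counts of separate observations. Markers of other cell states were read over the same 6 against 6 CHIR99021 arrays. By limma, 14% of all genes had an unadjusted p under 0.05 there, in either direction. Of 8 markers of naive pluripotent cells, 4 lay above background, 3 were lower and the median was 0.17. In either direction, 6 of the 8 were at an unadjusted p under 0.05. Tbx3 (0.40, mean level 5.05, limma, adjusted p = 0.013) and Klf2 (0.21, mean level 5.54, limma, adjusted p = 0.038) were called. Of 6 neural markers, 4 were lower and the median was -0.12. In either direction, 4 of the 6 were at an unadjusted p under 0.05, and Pax6 (-0.25, limma, adjusted p = 0.0336) was called. Of 10 EpiSC markers and 7 endoderm markers, limma called none, with 2 and 1 at an unadjusted p under 0.05. The part of these markers in the lean of the mitotic genes was not tested.

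Per array, the median deviation of the 39 genes from their own means was 0.06, 0.04 and -0.01 in untreated cells. It was -0.05, 0.00 and -0.02 with CHIR99021, 0.05, -0.04 and 0.07 with XAV939, and -0.03, -0.05 and 0.01 with both. Untreated replicate 3 and XAV939 replicate 2, the arrays with the smallest spread over genes, lay among the arrays with CHIR99021. After subtraction of the genes of like level, the medians were 0.06, 0.06 and 0.03 untreated, -0.05, -0.03 and -0.03 with CHIR99021, 0.03, -0.02 and 0.05 with XAV939, and -0.05, -0.05 and -0.03 with both. The highest array with CHIR99021 (-0.026) was then just below the lowest without it (-0.019).

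**Figure D4:**
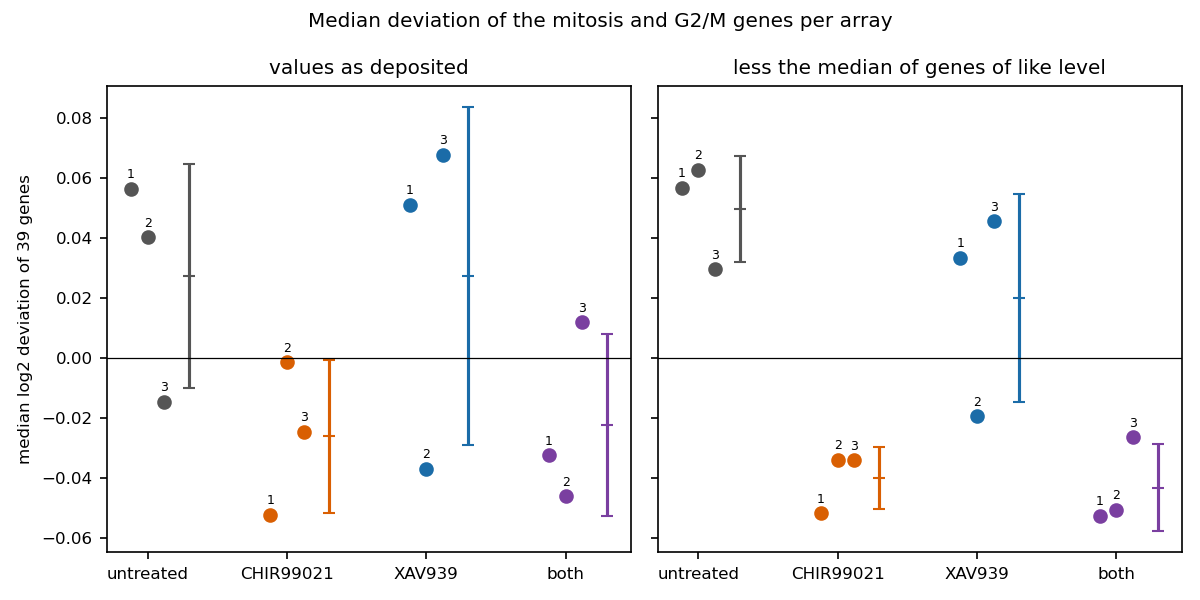
Median log2 deviation of the 39 genes on each array (points, numbered by replicate) with the group mean ± SD (bar beside the points, n = 3), as deposited (left) and after subtracting the median of genes of like level (right). On the left the groups overlap; on the right the 6 arrays with CHIR99021 lie between -0.053 and -0.026 and the 6 without between -0.019 and 0.063.

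Other genes of the cell cycle were read from the same fit. Of 47 other mitosis genes, 14 APC/C subunits and inhibitors, and 38 G1/S and replication genes with a probe, none was called in any of the 8 comparisons by limma, with 5, 1 and 3 at an unadjusted p under 0.05 for CHIR99021 over 6 against 6 arrays and 8, 1 and 3 for XAV939, where 14% and 16.9% of all genes were. The nearest was Spag5 (astrin, a spindle protein), 0.32 ± 0.08 (SE) higher with both compounds than untreated (limma, adjusted p = 0.0542). Of 22 transcription factors of the G2/M programme, 1 was called for CHIR99021: E2f2, -0.26 ± 0.05 (SE, limma, adjusted p = 0.019), whose mean of 4.69 lay below background. Its call was lost without untreated replicate 1 or 2, CHIR99021 replicate 3 or XAV939 replicate 3, at adjusted p values up to 0.0539. Foxm1, the activator of many G2/M genes, differed by 0.16 ± 0.06 with XAV939 over 6 against 6 arrays (SE, limma, adjusted p = 0.185). Its mean was also lower where CHIR99021 was added, at 7.77 for CHIR99021 alone against 7.94 for untreated cells. In the presence of XAV939, adding CHIR99021 gave 7.92 against 8.12, a difference of -0.20 ± 0.08 (SE, limma, adjusted p = 0.449). Foxm1 was not called in either direction.

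Of 18 inhibitors of Cdk1 and the cell cycle with a probe, Ccng2, the cyclin G2 gene linked to cell cycle arrest, was lower with CHIR99021. It measured 6.44, 6.25 and 6.26 in untreated cells, 5.91, 5.91 and 5.80 with CHIR99021, 6.36, 5.999 and 6.14 with XAV939, and 5.79, 5.94 and 5.74 with both. All 6 arrays with CHIR99021 were below all 6 without, and Ccng2 fell by 0.40 ± 0.07 (SE, limma, adjusted p = 0.00486). This call held in all 22 alternatives. Against untreated cells alone it fell by 0.45 with CHIR99021 (limma, adjusted p = 0.0499) and by 0.49 with both (limma, adjusted p = 0.0233). These 2 calls were lost without any 1 untreated array or any 1 array of the treated group, at adjusted p values up to 0.18 and 0.0823, and the first also without XAV939 replicate 3 or any 1 array with both compounds. The CHIR99021 call was lost in 15 of 23 settings, among them the replicate block (limma, adjusted p = 0.0507), the trend and robust options (0.0524), median centring (0.0622) and only the groups compared (0.0506). The call for both compounds was lost in 8 of 23, the array standard deviation as a covariate (0.0637) among them. Gadd45a, an inhibitor of Cdk1 induced by stress, rose by 0.48 with both compounds (limma, adjusted p = 0.0239). It measured 7.50, 7.60 and 7.30 untreated, 7.93, 7.75 and 7.88 with CHIR99021, 7.87, 7.92 and 7.82 with XAV939, and 7.93, 8.09 and 7.81 with both. All 9 treated arrays, those with 1 compound included, were above the 3 untreated arrays. XAV939 alone differed by 0.41 ± 0.09 (SE, limma, adjusted p = 0.221). Its call was lost without untreated replicate 3 (0.39, adjusted p = 0.12) or without replicate 1 or 2 with both compounds, under quantile or cyclic loess normalization (adjusted p = 0.0586 and 0.0618), with the array standard deviation as a covariate (adjusted p = 0.0966) and with only the groups compared in the fit (adjusted p = 0.0568), in 8 of 23 settings in all.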

How the data were processed

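The deposited table held 35399 probes on 12 arrays as log2 expression per probe. The authors used Partek, per the submitters' processing notes, in a version not given, and the background correction and normalization are not given in the sources used here. The log2 base was inferred from the range of the deposited values, 2.52 to 14.3, and no further normalization was applied. Probes with 1 gene in the platform annotation (21789) gave 19938 genes, the probe with the highest mean standing for a gene. Another 1621 probes named several genes and 11989 were not listed there.

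Group means were fitted over all 12 arrays and genes with limma 3.58.1 in R 4.3.3 (lmFit and eBayes, two-sided, Benjamini-Hochberg over all genes within a comparison, called at adjusted p under 0.05), after the code was tested on simulated data. The interaction is the CHIR99021 difference with XAV939 minus that without it. Each 6 against 6 comparison averages the CHIR99021 difference with and without XAV939, or the reverse. Deviations of same-numbered arrays from their group means correlated at -0.25 to 0.20, above 0.1 in 6 of 18 pairs, so the numbers were not taken to pair samples. The members, lists and tests were chosen with earlier results of these data known. Named genes, followed over the alternatives, were, per comparison, the 5 largest differences in each direction and any call. Not all of their differences are given here. Array values were given for the 2 genes per role with the smallest p in a 6 against 6 comparison, for Cdk1, Plk1, Aurka, Cdc20 and Top2a, and for Kif20b, which was added after its values were seen. Alternatives were 11 other settings and leaving out each of the 12 arrays. Start windows came from RefSeq (GRCm38.p6).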

Additional observations from a re-analysis of the deposited data

How the results depend on the processing

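With 3 arrays per group, few differences of the 39 genes came near a call. The nearest were Kif20b with both compounds against untreated (limma, adjusted p = 0.0808), and Kif14 with XAV939 and Fam64a with CHIR99021 over 6 against 6 arrays (0.097 and 0.0978). For CHIR99021 against untreated the smallest was 0.401, for Nek2. No member was called in any comparison under 11 other settings, the replicate block included (0 calls in each), or with 1 array left out, with 2 exceptions. For both compounds against untreated, array weights gave 1 call (Kif20b, -0.41, limma, adjusted p = 0.0498). For the 6 arrays with CHIR99021 against the 6 without, leaving out 1 array gave 0 to 1 calls, the call being Fam64a (-0.32, limma, adjusted p = 0.0283) without untreated replicate 1. The median difference of the 39 genes for both compounds against untreated was -0.05, and it was -0.0879 with cyclic loess, -0.0994 with the array standard deviation as a covariate and -0.02 with median centring. For CHIR99021 against untreated it went from -0.05 to -0.02 without CHIR99021 replicate 1, for both against XAV939 from -0.06 to -0.03 without XAV939 replicate 3 and to -0.09 with the covariate, and for CHIR99021 over 6 against 6 arrays from -0.05 to -0.09 with the covariate. The number of the 39 genes lower with CHIR99021 over 6 against 6 arrays, 33, ranged from 27 to 37, and that for both compounds against untreated, 33, from 24 with median centring to 36. Among 2030 combinations of a named gene and a setting, 2 gained a call and 74 lost one, all of the latter for Ccng2, Gadd45a, E2f2, Axin2, Tbx3, Klf2 or Pax6. No called difference changed sign. Some differences that were not called did, among them Birc5 with CHIR99021 against untreated (0.07, from -0.01 to 0.15) and Kif14 with both compounds (0.09, from -0.02 to 0.15). Over 6 against 6 CHIR99021 arrays, the call of Tbx3 was lost in 1 of 21 settings, that of Klf2 in 15 of 22 and that of Pax6 in 11 of 21. Axin2 with XAV939 over 6 against 6 arrays (-0.40, limma, adjusted p = 0.0375) was called in 10 of 22 settings. Counts over all genes moved more: 84 for CHIR99021 against untreated ranged from 34 to 119, 0 for XAV939 from 0 to 8, and 225 for both compounds from 10 without replicate 2 of both compounds to 550 with array weights. Both against XAV939 gave 47 (21 to 70), both against CHIR99021 5 (0 to 10) and the interaction 0 (0 to 1). The 6 against 6 comparisons gave 318 for CHIR99021 (178 to 420) and 66 for XAV939 (2 to 255). The cause of these shifts was not tested. Fitting only the groups compared gives no value for the interaction or the 6 against 6 comparisons. Both remaining alternatives were chosen after seeing the data. The share of windows with TTTGAA at 1 window per gene stands beside the main share. The second probe of Top2a (mean 5.67) gave -0.13 for CHIR99021 and 0.08 for XAV939.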
